A study of Homo sapiens with 8 samples.

Results

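The genes described here carry names of the LINC series, given to long intergenic noncoding RNAs, and were detected in 2 human cancer cell lines. A member was a gene whose name in the array files starts with LINC0 and that had a probe well above background in both channels on at least 4 of the 8 arrays. Of 838 such names, 260 were members, among 19532 genes of any kind that met the same detection rule and 43317 gene names in all. Each member was read from its detected probe with the highest mean signal.

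Each array compared cells transfected with 1 mature miRNA, labelled with Cy5, with mock cells of the same line, labelled with Cy3. The mock is labelled as receiving no transfection, and it is described as cells without a miRNA precursor, so a response to transfection as such was not separated from one to the miRNA. HCT116, a colorectal cancer line, received 1 strand of miR-139 (miR-139-5p or miR-139-3p) or 1 strand of miR-143 (miR-143-5p or miR-143-3p). PANC-1, a pancreatic cancer line, received a guide strand (miR-30c-5p or miR-30a-5p) or a passenger strand (miR-30c-2-3p or miR-30a-3p) of the miR-30 family. Each miRNA was on 1 array and no dyes were swapped, so no ratio below carries an error or a test, and a dye effect cannot be told apart from an effect of the miRNA. A member counted as called on an array when its log2 ratio of Cy5 over Cy3 was at least 1 from 0, that is 2-fold.

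Long noncoding RNAs are transcripts without a long reading frame. Some stay at the gene they are made from and act on its neighbours, some scaffold or sequester proteins, and others bind miRNAs. Many are made in few copies per cell and in few cell types, and a number of genes first named as LINC were later found to code for microproteins. A miRNA recognises its targets mainly through its seed, the bases 2 to 8, so the sequences of the transfected miRNAs are given here from RefSeq, with the seed in capitals. The guide strands miR-30c-5p and miR-30a-5p share their seed.
miR-139-5p in HCT116 (GRCh38.p14, chr11:72615102-72615124, minus strand): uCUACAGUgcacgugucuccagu
miR-139-3p in HCT116 (GRCh38.p14, chr11:72615066-72615088, minus strand): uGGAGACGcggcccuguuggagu
miR-143-5p in HCT116 (GRCh38.p14, chr5:149428944-149428965, plus strand): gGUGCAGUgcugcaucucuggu
miR-143-3p in HCT116 (GRCh38.p14, chr5:149428978-149428998, plus strand): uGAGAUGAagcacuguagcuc
miR-30c-5p in PANC-1 (GRCh38.p14, chr1:40757300-40757322, plus strand): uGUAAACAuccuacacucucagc
miR-30c-2-3p in PANC-1 (GRCh38.p14, chr6:71376964-71376985, minus strand): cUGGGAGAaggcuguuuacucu
miR-30a-5p in PANC-1 (GRCh38.p14, chr6:71403595-71403616, minus strand): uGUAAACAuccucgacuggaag
miR-30a-3p in PANC-1 (GRCh38.p14, chr6:71403554-71403575, minus strand): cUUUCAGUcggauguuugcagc

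The response of the members turns on few RNAs, whose 60-base probes are shown because each result below rests on the stretch of RNA that the probe covers. The first 5 are the members called higher with miR-139-3p, LINC01405 was low on every HCT116 array, and LINC01444 was low on every PANC-1 array.
LINC00482 (hg19, chr17:79276637-79276696, minus strand): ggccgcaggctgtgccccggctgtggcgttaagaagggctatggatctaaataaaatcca
LINC01089 (hg19, chr12:122233207-122233266, minus strand): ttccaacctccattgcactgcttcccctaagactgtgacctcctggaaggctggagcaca
LINC01311 (hg19, chr22:19160283-19160342, plus strand): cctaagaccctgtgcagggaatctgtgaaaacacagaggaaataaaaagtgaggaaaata
LINC01481 (PRANCR) (hg19, chr12:70636293-70636352, minus strand): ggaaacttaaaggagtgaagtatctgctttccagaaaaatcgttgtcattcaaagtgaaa
LINC01021 (PURPL) (hg19, chr5:27485707-27485766, plus strand): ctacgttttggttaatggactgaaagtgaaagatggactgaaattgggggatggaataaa
LINC01405 (VHRT) (hg19, chr12:111375193-111375252, plus strand): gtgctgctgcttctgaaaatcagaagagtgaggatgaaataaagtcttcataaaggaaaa
LINC01444 (hg19, chr18:14969675-14969734, minus strand): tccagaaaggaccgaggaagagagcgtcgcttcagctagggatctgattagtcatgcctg

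The members were dim. Their mean log2 signal had a median of 6.21, with quartiles at 5.98 and 6.74, beside a median of 7.12 over all detected genes. They were not evenly detected, since 170 passed the rule's criterion on all 8 arrays and 52 on exactly 4, with 8, 13 and 17 on 5, 6 and 7 arrays. Of the 90 that were not on all 8, 16 were detected through the HCT116 arrays alone and 31 through the PANC-1 arrays alone. The same counts over all detected genes were not made. Just inside the rule, the members on 4 arrays had log2 signals from 5.84 to 6.87 with a median of 5.96. Just outside it, 13 LINC0 genes on 3 arrays had signals from 5.83 to 6.05 with a median of 5.90. A further 30 were on 1 or 2 arrays and 535 on none. The median spot read 22.2 to 23.3 in Cy3 over a background of 17 to 19, and no spot was saturated. Precision is limited by the single array per miRNA. Repeat spots of probes printed 10 times had a median SD of 0.0393 to 0.0647 in their log2 ratio, which is a spread within 1 hybridisation.

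RefSeq names 258 of the 260 members, 205 by the symbol on the array and 53 under another symbol. It annotates 243 as long noncoding RNAs, 12 as protein-coding genes and 3 as transcribed pseudogenes. Among the protein-coding members are several known microprotein genes. LINC00116 is MTLN, which encodes mitoregulin of the inner mitochondrial membrane, LINC01420 is NBDY, which encodes a microprotein of the mRNA decapping complex, and LINC00493 and LINC00998 are the small integral membrane protein genes SMIM26 and SMIM30. LINC00094 (BRD3OS) lies beside the chromatin reader gene BRD3, and the probe named LINC00341 belongs to SYNE3, which encodes a nuclear envelope protein.

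Most members stayed near their mock level. The median log2 ratio of the members lay between 0.00 and 0.04 on the 8 arrays, and their SD between 0.155 and 0.405 was below that of all detected genes on every array, which was 0.208 to 0.515. Over the 8 arrays there were 17 calls, made by 13 different members, and 247 members were never called. The share of all genes called on some array was not computed, and the shares on each array are given below. All 17 values were well above background in both channels. Low signals bring ratios toward 0 under the background correction used, which added an offset of 50 units to every signal, so a small ratio of a dim member does not show a small change.

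Read against all genes, the shares of members called were close to or below the background on every array but that of miR-139-5p, which had a single call. This turned on several arrays under other settings of the background. Higher calls with miR-139-3p were 13.6% of members beside 7.6% of all genes in the scanner's log ratio, and 10.2% beside 6.02% with an offset of 1. In the scanner's log ratio, lower calls were 2.85% beside 1.4% with miR-30a-5p and 4.33% beside 3.93% with miR-143-5p. Higher calls there were 3.95% beside 3.04% with miR-143-3p and 3.29% beside 2.81% with miR-30c-5p. Other shares stayed below, such as lower calls with miR-30c-2-3p, at 8.16% beside 11.6%. The shares on all arrays under these settings are given further below. With miR-139-5p, 1 of 234 measured members was lower and 0 were higher, beside 0.21% and 0.0646% of all genes measured on that array. With miR-139-3p, 2 of 235 were lower and 5 higher, beside 3.13% and 2.34%. On the array of miR-143-5p, 2 of 231 were lower and 0 higher, beside 1.1% and 0.387%. The array labelled miR-143-3p had 0 of 228 in either direction, beside 0.99% and 0.557%.

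In PANC-1, both guide strands gave no call. For miR-30c-5p, 0 of 243 members were called in either direction, beside 0.458% of all genes lower and 0.83% higher. For miR-30a-5p it was 0 of 246, beside 0.286% and 0.339%. The miR-30c-2-3p array was fuller: 5 of 245 members were lower and 1 higher, beside 4.56% and 1.86%. For miR-30a-3p, 1 of 247 was lower and 0 higher, beside 1.26% and 0.415%.

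**Figure D1:**
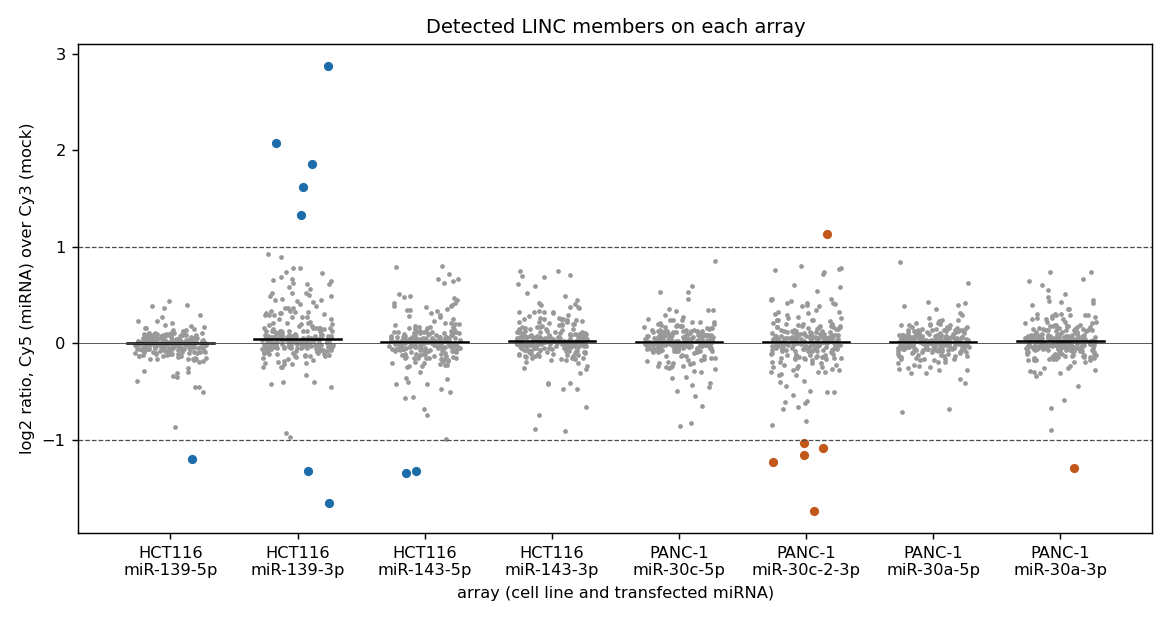
Log2 ratio of Cy5 (miRNA-transfected) over Cy3 (mock) of each member measured on each of the 8 arrays, with 1 point per member, a black bar at the median and dashed lines at 2-fold. Coloured points are the called members, which number 7 on the miR-139-3p array, 6 on the miR-30c-2-3p array and 0 to 2 on the others.

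The array of miR-139-3p held all but 1 of the calls toward higher levels. LINC00482 was 7.33-fold higher there, at a log2 ratio of 2.87, and lay between -0.36 and 0.10 on the other HCT116 arrays. LINC01089, also known as LIMT and transcribed beside the histone methyltransferase gene SETD1B, was 4.21-fold higher, at 2.07, with -0.11, -0.05 and 0.04 on the other HCT116 arrays. LINC01311 was 3.62-fold higher, at 1.86, with -0.14, -0.22 and -0.14 on the others. Each of these 3 members was called on that array alone. In PANC-1, LINC01089 read -0.80 with miR-30c-2-3p and LINC00482 read -0.61, short of 2-fold on the other side of 0.

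LINC01481 (PRANCR), a noncoding RNA needed for the renewal of epidermal progenitors, was 3.08-fold higher with miR-139-3p, at 1.62. It was above 0 on all 8 arrays, from 0.04 to 0.42 on the remaining 7. LINC01021 (PURPL) was 2.52-fold higher, at 1.33, with -0.09, -0.02 and 0.07 on the other HCT116 arrays. In PANC-1 it was not well above background in either channel of any array.

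PURPL had the lowest mock signal of the called members. Its raw intensity on the miR-139-3p array was 27.4 in mock over a background of 18, and 128 in transfected cells over a background of 20. Its ratio depends on how the background is removed, with 1.14 without correction and 3.54 in the scanner's own log ratio. The mock level of PURPL also differed between the HCT116 mocks, with log2 signals of 5.96 and 5.94 on the miR-139 arrays and 6.69 and 6.57 on the miR-143 arrays. The other higher members were brighter in mock, with raw signals of 155 for LINC00482, 145 for LINC01089, 61.0 for LINC01311 and 50.7 for PRANCR, against 1350, 724, 318 and 239 in transfected cells.

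On the lower side of the miR-139-3p array stood LINC00094 (BRD3OS), 3.16-fold lower at -1.66, and LINC01405 (VHRT), 2.51-fold lower at -1.33. LINC00094 had raw signals of 548 in mock and 154 in transfected cells. It was 3.35-fold lower in PANC-1 given miR-30c-2-3p, at -1.74, and its -0.996 under miR-143-5p was just short of a call. On the remaining HCT116 arrays it lay at -0.17 (miR-139-5p) and 0.13 (miR-143-3p). The miR-30 guide strands gave -0.27 and -0.28, and the array of miR-30a-3p alone read well above 0, at 0.65. BRD3, its neighbour on the genome, read -0.07 with miR-139-3p and 0.38 with miR-30c-2-3p.

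LINC01405, a ventricular heart RNA transcribed beside the ventricular myosin gene MYL2, lay below 0 on each of the 4 HCT116 arrays. Its log2 ratios were -0.87 and -1.33 under the 5p and 3p strands of miR-139, and -1.35 and -0.91 under those of miR-143. Labels do not say whether arrays share mock RNA, and the mock channels of a precursor were treated here as 1 sample, so these are not counted as 4 independent values. The mock level of LINC01405 itself differed 2-fold between the mocks, with log2 Cy3 signals of 7.86 and 7.78 on the miR-139 arrays and 8.81 and 8.84 on the miR-143 arrays. In PANC-1, signals of 5.81 to 5.88 were at the edge of the background and the ratios lay between -0.08 and 0.02.

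LINC01315 was the 1 call with miR-139-5p, 2.3-fold lower at -1.20, from raw signals of 868 in mock and 460 in transfected cells. It was below 0 on the other HCT116 arrays as well, at -0.22, -0.36 and -0.66. In PANC-1, where it is far dimmer, its lowest ratio was -0.66, under miR-30c-2-3p, and its highest 0.74, under miR-30a-3p. LINC00173 was 2.51-fold lower with miR-143-5p, at -1.33, and read -0.75 on the array of the other miR-143 strand. In PANC-1 it was 2.24-fold lower under miR-30c-2-3p, at -1.16. Its remaining 5 ratios lay between -0.39 and 0.14.

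In PANC-1 nearly all calls came from a single array, that of miR-30c-2-3p, where 5 members fell and 1 rose. The other passenger strand, miR-30a-3p, added 1 call, and the guide strands none. On both passenger arrays a smaller share of members than of all genes was called in each direction, as given above. LINC01444 read -0.83 and -0.68 under the guide strands of miR-30c and miR-30a. Under the passenger strands it read -1.09 and -1.30, or 2.13-fold and 2.46-fold lower. All 4 PANC-1 arrays thus lay on the same side of 0, and in HCT116 the RNA was not well above background on any array. LINC01540 (GAPLINC), first described as raised in gastric adenocarcinoma, read -1.04 and -0.90 with the same passenger strands and -0.08 and -0.31 with the guide strands of miR-30c and miR-30a. LINC00341 (SYNE3) was 2.35-fold lower with miR-30c-2-3p, at -1.23, and read from -0.25 to 0.06 on the other PANC-1 arrays. LINC00476 (ERCC6L2-AS1), antisense to the DNA repair gene ERCC6L2, was 2.2-fold higher with miR-30c-2-3p, at 1.14, and read 0.93 with miR-139-3p.

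**Figure D2:**
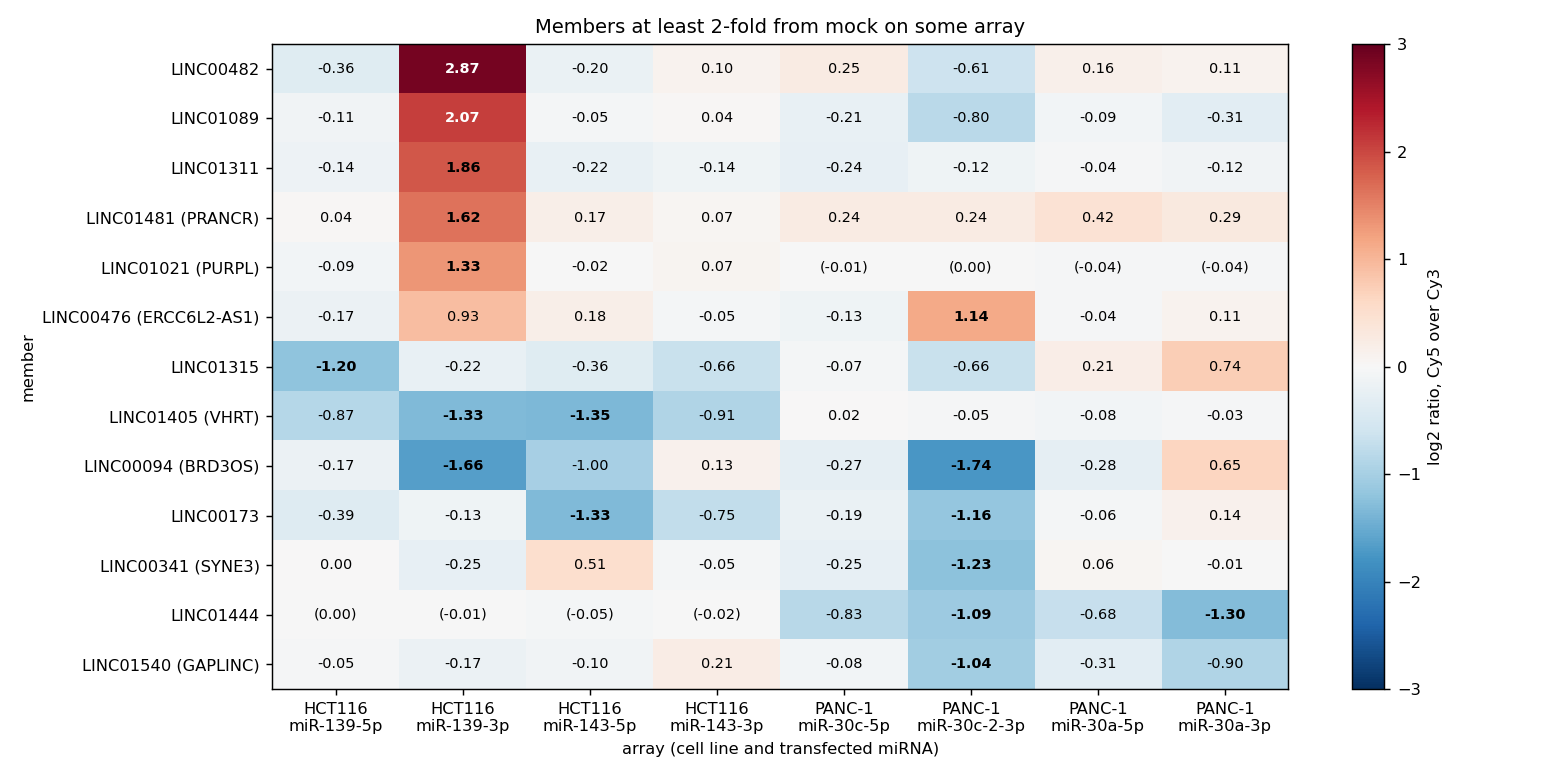
Log2 ratio of Cy5 over Cy3 of the 13 members called on some array (rows), on each of the 8 arrays (columns), with calls in bold and values in parentheses where the member was not well above background in either channel. The block of 5 higher members stands in the miR-139-3p column, LINC01405 is low across the HCT116 columns and LINC01444 across the PANC-1 columns, and the cell of LINC00094 under miR-143-5p, not a call, is -0.996 before rounding.

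Several members carry more than 1 detected probe, and the probes did not always read the same size. Beside the 17 calls there were 17 readings from other detected probes of the same genes, and 15 had the sign of the call. LINC01405 was read alike by both of its probes, with -1.02 and -1.28 from the other probe where the brightest gave -1.33 and -1.35. PRANCR was at 1.04 and GAPLINC at -0.84 and -0.38 in their other probes. For LINC00482, however, the other probes read 0.11 and 0.73 where the brightest read 2.87, and for LINC01089 the other read 0.30 against 2.07. The other probe of LINC00094 read -0.15 and -0.28 beside its calls of -1.66 and -1.74, and that of LINC01315 -0.07. LINC00476 had 0.13 and 0.16 in its other probes. LINC00173 had 0.01 and -0.45 beside its call in HCT116, and 0.03 and -0.60 beside its call in PANC-1. LINC01021, LINC01311, LINC00341 and LINC01444 had 1 detected probe each. Over all 72 members with more than 1 detected probe, the median absolute difference between probes was 0.131 in 843 comparisons. With the median over a gene's probes in place of the brightest probe, 10 of the 17 called values were still 2-fold. These 10 include the values of the members with 1 detected probe, which that setting cannot change.

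**Figure D3:**
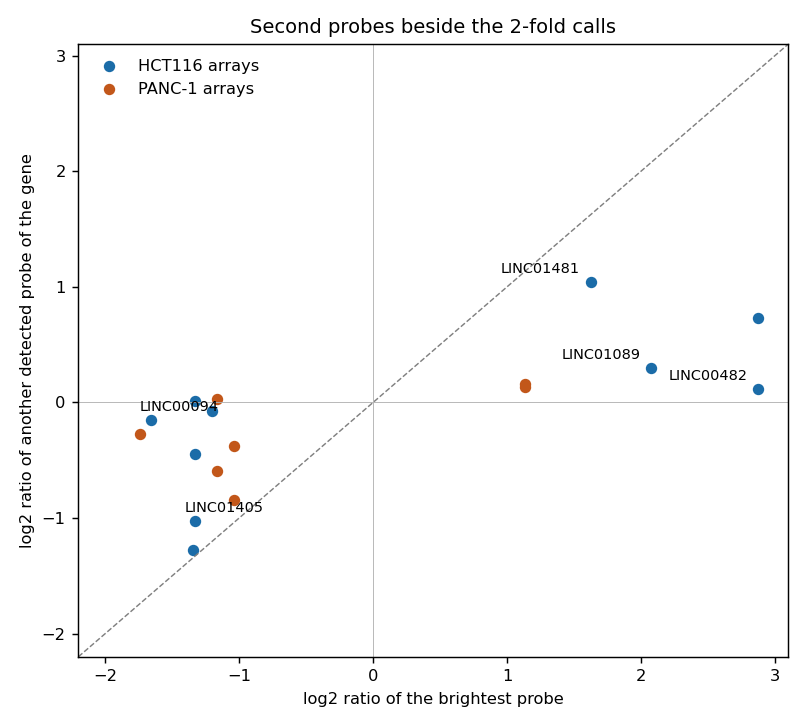
Log2 ratio of the brightest probe (horizontal axis) and of each other detected probe of the same gene (vertical axis), for the 17 readings that stand beside a 2-fold call, with a dashed line where both are equal and HCT116 and PANC-1 arrays in separate colours. LINC01405 lies near the line, while LINC00482, LINC01089 and LINC00094 lie much nearer to 0 in their other probes.

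A seed match in the probes was rare. The probes were searched for the heptamer complementary to bases 2 to 8 of the miRNA of the array, or to bases 2 to 7 followed by A, which may overlap in 1 site. The letters are ACTGTAG and CTGTAGA for miR-139-5p, and CGTCTCC and GTCTCCA for its 3p strand. They are ACTGCAC and CTGCACA for miR-143-5p, and TCATCTC and CATCTCA for its 3p strand. The guide strands of miR-30 share TGTTTAC and GTTTACA, miR-30c-2-3p has TCTCCCA and CTCCCAA, and miR-30a-3p has ACTGAAA and CTGAAAA. The number of measured members with such a heptamer was 1, 2, 5 and 1 on the HCT116 arrays in that order, 1 and 1 for the guide strands of miR-30, 6 for the passenger strand of miR-30c-2 and 10 for that of miR-30a. No member called lower on an array was among them. With miR-30a-3p, the 10 members with a heptamer had a median log2 ratio of -0.03, from -0.17 to 0.15, and the 237 without one had 0.02. A probe covers 60 bases of a transcript, so a missing match says nothing of the rest of the RNA.

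The guide strands of miR-30c and miR-30a, which share their seed but were each set against their own mock channel, gave similar ratios for the members, although none reached 2-fold on both. Across the 226 members measured in both channels of both arrays, Pearson's r of the log2 ratios was 0.837 and Spearman's rho was 0.73, and 174 had the same sign. This is a description across genes, which share the slide, the line and the dye orientation, and carries no p-value. LINC00261, a noncoding RNA of endoderm transcribed beside the transcription factor gene FOXA2, read -0.86 and -0.71 under the guide strands of miR-30c and miR-30a, and 0.16 and 0.55 with the passenger strands. FOXA2 itself read -0.75 and -0.75 with the guide strands, and -0.05 and -0.04 with the passenger strands. LINC00261 and FOXA2 thus lay on the same side of 0 with both guide strands. LINC00842 read 0.85 and 0.85, and its neighbour ANXA8L1 0.60 and 0.47. LINC00294 read -0.66 and -0.25, LINC00704 (MANCR) 0.53 and 0.39, and LINC01389 -0.36 and -0.41. TCP11L1 beside LINC00294 did not follow by a like amount, at -0.02 and -0.12. AKR1E2 beside LINC00704 read 0.02 and -0.01, and FOXE3 beside LINC01389 0.03 and -0.0008. The mock log2 levels of AKR1E2 and FOXE3 in PANC-1 were low, at 5.89 and 6.13. Their small ratios thus do not show that they stayed at their mock level.

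**Figure D4:**
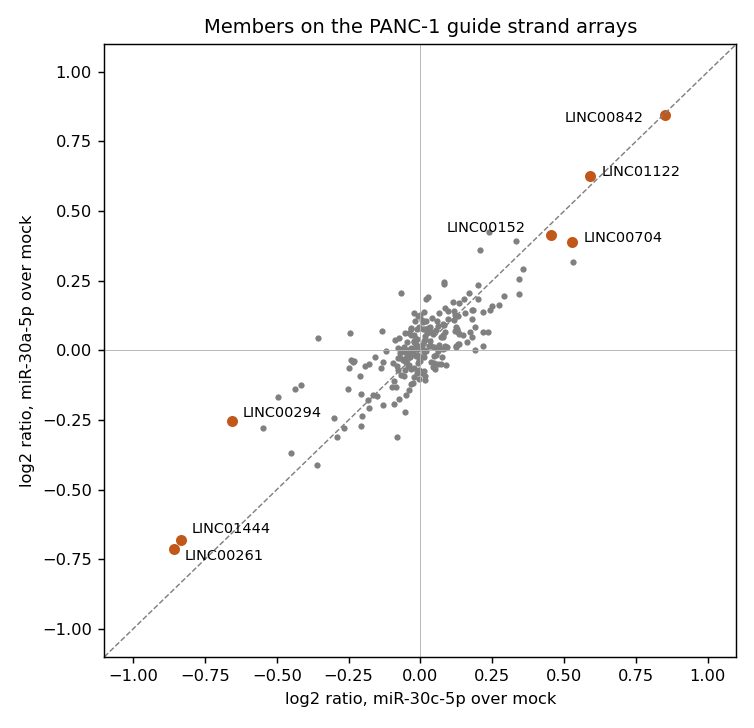
Log2 ratio of Cy5 over Cy3 with miR-30c-5p (horizontal axis) and miR-30a-5p (vertical axis) in PANC-1, with 1 point for each of the 226 members well above background in both channels of both arrays and a dashed line where both are equal. LINC00261 and LINC01444 are the lowest pair, at -0.86 and -0.83 with miR-30c-5p, and LINC00842 is the highest on both.

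Neighbouring genes gave no general pattern. For the members with a measured protein-coding neighbour, 136 to 165 on an array, Pearson's r between the log2 ratios of member and neighbour was between -0.17 and 0.20 on the 8 arrays, as a description across genes on 1 array each. SLC38A10 beside LINC00482 read 0.18 with miR-139-3p, SETD1B beside LINC01089 0.26, SLC25A1 beside LINC01311 -0.17 and CNOT2 beside PRANCR 0.52. None of these 4 neighbours was 2-fold from mock where its member was.

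LINC01122 was above 0 by a similar amount on every array, from 0.39 to 0.63. In all, 10 of the 170 members on all 8 arrays had ratios of 1 sign throughout, all of them above 0 and none below. The others had small ratios apart from PRANCR, LINC00900 with up to 0.75 and LINC01006 (RNF32-DT) with up to 0.70. As Cy5 was the transfected channel on every array, the dye and the transfection cannot be told apart for them. The share of all genes with 1 sign on every array was not computed, so the count of 10 has no background. Several of the 10 came close to 0, such as LINC00887 and LINC00211 with a lowest ratio of 0.01.

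The mock channels show which members the untreated lines express. The Cy3 channels of the arrays of 1 precursor were averaged to 1 mock sample, which gave 2 mock samples per line, and lines were compared with limma across all 19532 detected genes. Labels do not say whether these mocks were separate cultures, so the p-values measure the spread between these samples, which may be technical. All HCT116 arrays lay in 1 column of the slide and all PANC-1 arrays in the other, so line and slide position cannot be told apart. Of the 170 members on all 8 arrays, 43 passed an adjusted p of 0.05, 21 higher in HCT116 and 22 higher in PANC-1, or 12.4% and 12.9%. Among all 15731 genes on all 8 arrays the shares were 22.5% and 19.7%. With 1 PANC-1 mock left out, the member calls dropped to 4 and 4 (without the miR-30c mock) or 4 and 5 (without the miR-30a mock).

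LINC01315 had the widest gap of the members. Its log2 levels were 9.95 and 9.87 in HCT116 mocks and 6.59 and 6.80 in PANC-1 mocks, which do not overlap, a difference of 3.22 (SE 0.096, limma, adjusted p = 0.00111) or 9.34-fold. LINC00998 (SMIM30) was 1.49 higher in HCT116 (SE 0.118, limma, adjusted p = 0.00408), with 8.82 and 8.55 against 7.13 and 7.26. LINC00467 was 1.47 higher (SE 0.0692, limma, adjusted p = 0.00187), with 9.11 and 9.06 against 7.55 and 7.68. LINC00173 and LINC00999 were also called, 2.42-fold and 2.06-fold higher in HCT116.

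In PANC-1, GAPLINC was higher by 3.86-fold (a log2 difference of -1.95, SE 0.256, limma, adjusted p = 0.0107), with levels of 7.70 and 8.37 against 6.02 and 6.16 in HCT116. LINC01296, which RefSeq lists as the pseudogene DUXAP9, was 3.33-fold higher (-1.74, SE 0.0831, limma, adjusted p = 0.00192). It belongs to a family of similar copies, so its probe may read more than 1 of them. LINC01089 was 2.77-fold higher in PANC-1 (-1.47, SE 0.138, limma, adjusted p = 0.00551) and the microprotein gene MTLN 2.02-fold (-1.01, SE 0.0809, limma, adjusted p = 0.00414). These 4 and the 5 above were the called members at least 2-fold apart.

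**Figure D5:**
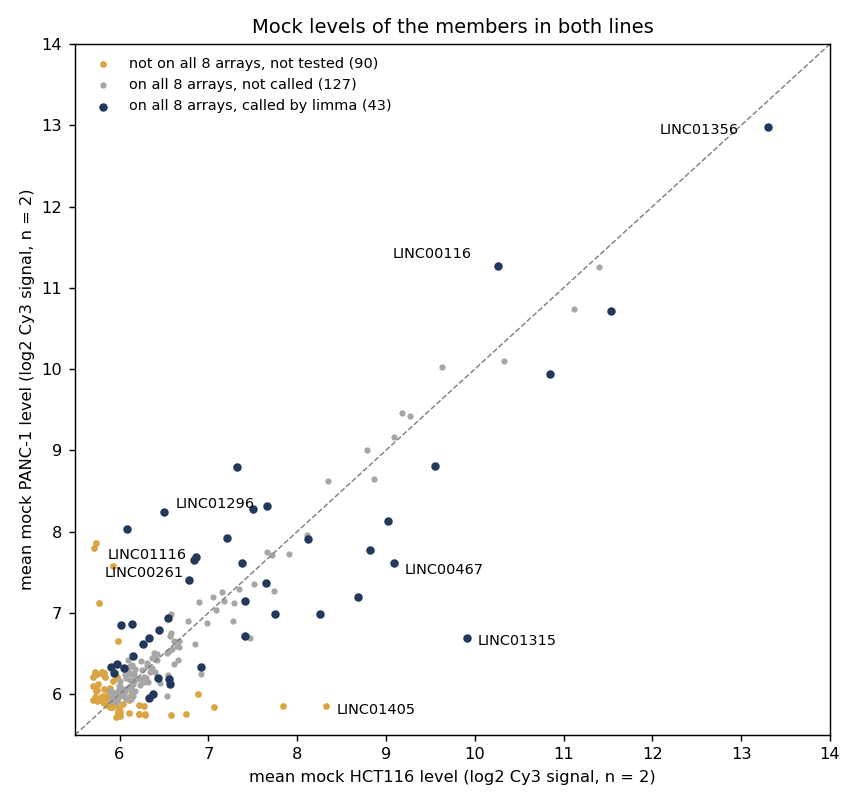
Mean mock level of each of the 260 members in HCT116 (horizontal axis) and PANC-1 (vertical axis) as log2 Cy3 signal after quantile normalisation, each the mean of 2 mock samples, with a dashed line where both are equal. Dark points are the 43 members called by limma among the 170 on all 8 arrays, and the members not on all 8 arrays lie along the edges, near background in 1 line or both.

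Members seen in 1 line only were chosen by that detection, so their levels are a description. In no PANC-1 mock channel were 13 members well above background, and in no HCT116 mock channel 27. These counts were not made over all detected genes, so their lean toward PANC-1 is not read as a trait of the members. Of all spots other than controls, 44.1% to 44.6% were well above background in Cy3 on the HCT116 arrays. On the PANC-1 arrays it was 44.5% to 45.3%. Against the lowest signal counted as well above background on each array, LINC01116 was at least 4.11-fold higher in PANC-1, with a mean log2 level of 7.86 against a measured 5.74. LINC00261 was at least 3.93-fold higher, with 7.80 against 5.71, and LINC01444 at least 2.45-fold, with 7.12 against 5.77. On the HCT116 side the bounds were lower, with LINC00470 at least 1.9-fold, LINC00944 at least 1.68-fold and PURPL at least 1.38-fold higher. These bounds rest on the mean of all mock channels of the line. For PURPL the bound would be lower from the miR-139 mocks alone, whose levels are given above. LINC01405, with 7.82 and 8.82 in HCT116 mocks against 5.84 and 5.85, was detected in some PANC-1 channels only. The same held for LINC00640, with 8.18 and 7.51 against 5.82 and 5.89, and for LINC00460, with 6.91 and 7.21 against 5.79 and 5.90. LINC00665 was the reverse, with 5.92 and 5.94 against 7.54 and 7.62.

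The brightest probes overlapped between the lines but differed in order. LINC01356 gave the highest signal of the members, at a log2 level of 13.30 in HCT116 and 12.98 in PANC-1. LINC00504, SMIM26, NBDY and LINC01001 followed in HCT116, between 11.54 and 10.85, and MTLN, SMIM26, NBDY and LINC00504 in PANC-1, between 11.27 and 10.72. A signal depends on the probe as well as on the RNA, so the order among genes is one of signal and not of abundance. Of the 12 members that RefSeq annotates as protein-coding, LINC00094 and LINC00341 alone were called on some array. No share of all genes called on some array was computed to set beside this. The microprotein genes MTLN, NBDY, SMIM26 and SMIM30 stayed between -0.85, for SMIM26 with miR-30c-2-3p, and 0.67, for SMIM30 with miR-143-5p.

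From a list of 29 LINC genes with a described role, 26 were named in the files and 23 were members. Of these, LINC00094 and LINC01021 were the 2 called on some array, as described. This count, too, has no share of all genes beside it. NORAD (LINC00657), which sequesters Pumilio proteins and so keeps chromosomes stable, lay between -0.25 and 0.64. CYTOR (LINC00152), raised in many tumours, read 0.79 under miR-143-5p, 0.60 under miR-30c-2-3p and -0.68 under miR-30a-3p. Its HCT116 mocks differed, at 9.16 and 10.1. LINC00460 read -0.93 with miR-139-3p and 0.80 with miR-143-5p. CHASERR (LINC01578), which restrains its neighbour CHD2, lay between -0.49 and 0.12. LINC00662 reached 0.73 with miR-139-3p and LINC00467 0.74 with miR-30c-2-3p. LINC00665 reached 0.66 with miR-30a-3p, and, apart from LINC00261 and the microprotein genes given above, the remaining list members were within 0.5 of 0 on all 8 arrays.

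Mock channels were compared to give the background of these ratios. Between Cy3 channels of arrays of the same precursor, 0 members were 2-fold apart. Between channels of different precursors the number was 1 to 2 in HCT116, or 0.469% to 0.943% of the members, beside 1.06% to 1.12% of all genes. In PANC-1 it was 0 to 1, or up to 0.442%, beside 0.188% to 0.243%. The members were thus near the share of all genes. The members 2-fold apart between the mean HCT116 mocks were LINC01405 and LINC01197, the latter at 5.94 and 7.13. The line labels fitted their markers in part. Of 7 colon epithelial markers, CDH1, EPCAM and CDX2 were higher in HCT116 by 2.92, 4.31 and 1.22 on the log2 scale. In contrast, CDX1 differed by -0.07, and LGALS4 differed by -0.35 and was not well above background in HCT116. CDH17 and VIL1 were not detected. Of 6 mesenchymal markers, the 4 detected ones (VIM, ZEB1, CDH2 and SPARC) all had their higher level in PANC-1, VIM with 15.2 against 6.53. FN1 and TWIST1 were not detected. Of 3 markers of other cell types, PTPRC of blood cells was detected, at 5.92 in both lines, near background.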

How the data were processed

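Total RNA of HCT116 and PANC-1 cells was hybridised to 8 two-colour Agilent arrays of 60-base probes placed on hg19. Per the file headers, spot intensity was read with Feature Extraction 11.5.1.1 from the mean pixel of the spot and the median pixel of its local background. The deposited log10 ratio is processed Cy5 over processed Cy3, and the authors' processed table held the same log10 values on all 8 arrays. No further processing is given in the sources used here. Of the processed table, 0 columns were left without a sample.

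Intensities were processed here in R 4.3.3 with limma 3.58.1 by normexp background correction with an offset of 50, removal of control spots and loess within each array. Outlier spots were left out and spots of a probe averaged. A gene was measured on an array when 1 or both channels of its brightest detected probe were above background. Mock levels were log2 Cy3 signals after quantile normalisation between arrays, and lines were compared with lmFit and eBayes over all detected genes with Benjamini-Hochberg adjustment, after the fit was tested on simulated data. The members, lists and tests were chosen with earlier results of these data known. Named members were the 3 lowest and 3 highest per array among those above background in Cy3 and Cy5, without saturation or outlier calls, and with no other detected probe of opposite sign, the 5 brightest in each mock, the 8 with the largest line difference in each direction, and a list of members with a described role. Members singled out beyond that rule were the called ones and those of 1 sign on all arrays, named after their values were seen. LINC00470 and LINC00944, for their bounds between the lines, and LINC01197, for its difference between HCT116 mocks, were named in the same way. Names, biotypes and neighbours are from RefSeq (GRCh38.p14), as are miRNA sequences. A comparison with 1 further item is not reported here. Alternatives were no background correction, an offset of 1, the scanner log ratio, median centring, the median over probes, detection in both channels, scaling to the 75th percentile, 4 mock channels per line, and leaving out each mock. Tables were made in Python 3.11.15 with pandas 2.3.3 and numpy 2.4.6.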

Additional observations from a re-analysis of the deposited data

How the results depend on the processing

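Of the 17 called member values, 17 were still at least 2-fold with the scanner's log ratio, with an offset of 1 and with detection in both channels, 14 without background correction, 14 with median centring and 10 with the median over probes. None changed sign, and 9 held under all of these. The median over probes cannot change the values of members with 1 detected probe, which are among its 10. Detection in both channels leaves the ratios unchanged. As all 17 values were already well above background in both channels, that setting could not remove a call. With the scanner's log ratio and with an offset of 1, every called value was larger in size than with the offset of 50. Their counts of 17 are thus a weak check of the calls. An offset of 1 was chosen after seeing the data.

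The number of members called moved with the ratio setting, and so did the share of all genes. In HCT116 (strands 5p and 3p of miR-139, then 5p and 3p of miR-143), the scanner's log ratio gave 5, 16, 10 and 6 members lower. These were 2.14%, 6.81%, 4.33% and 2.63%, beside 1.25%, 9.68%, 3.93% and 4.39% of all genes. The same ratio gave 2, 32, 6 and 9 higher, or 0.855%, 13.6%, 2.6% and 3.95%, beside 0.824%, 7.6%, 2.58% and 3.04%. In PANC-1 (strands 5p and 3p of the miR-30c arrays, then of miR-30a) it gave 5, 20, 7 and 5 lower and 8, 15, 1 and 8 higher. The lower ones were 2.06%, 8.16%, 2.85% and 2.02%, beside 2.58%, 11.6%, 1.4% and 4.09% of all genes. The higher ones were 3.29%, 6.12%, 0.407% and 3.24%, beside 2.81%, 7.16%, 1.37% and 3.29%. An offset of 1 gave, in the same order, 4, 7, 8 and 4 lower and 0, 24, 3 and 4 higher in HCT116. In PANC-1 it gave 4, 14, 1 and 2 lower and 2, 10, 1 and 4 higher. The lower ones in HCT116 were 1.71%, 2.98%, 3.46% and 1.75%, beside 0.63%, 7.46%, 2.81% and 3.17% of all genes. The higher ones there were 0.0%, 10.2%, 1.3% and 1.75%, beside 0.199%, 6.02%, 1.38% and 1.72%. The lower ones in PANC-1 were 1.65%, 5.71%, 0.407% and 0.81%, beside 1.67%, 10.6%, 0.848% and 3.21%. The higher ones there were 0.823%, 4.08%, 0.407% and 1.62%, beside 1.93%, 4.7%, 0.854% and 1.92%. With miR-139-3p, the scanner's log ratio thus called 13.6% of the members higher, beside 7.6% of all genes, and 6.81% lower, beside 9.68%. Without background correction, 2 members were lower under miR-30c-2-3p, or 0.816% beside 3.84% of all genes. The median over probes gave 0, 1 and 1 lower for the first 3 HCT116 arrays, beside 0.151%, 2.61% and 0.833% of all genes. For miR-30c-2-3p it gave 3 lower and 0 higher, or 1.22% and 0.0%, beside 3.77% and 1.5%. Median centring gave 0 lower for miR-139-5p and 1 higher for miR-143-5p, beside 0.0485% and 1.1% of all genes. In PANC-1, in the order above, it gave 2, 2, 1 and 11 higher, with 3 lower for miR-30c-2-3p. The higher ones were 0.823%, 0.816%, 0.407% and 4.45%, beside 4.43%, 3.8%, 1.56% and 10.2% of all genes. The 3 lower ones were 1.22% beside 3.05%. Median centring set the median of all genes to between 0.03 and 0.40, the latter on the array of miR-30a-3p, where the members' median was 0.19. The cause of these moves was not tested.

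Between mock lines, 4 channels per line gave 42 members higher in HCT116 and 42 in PANC-1. That setting counts the mock channels of 1 precursor as separate samples, though they may hold the same RNA. Shares of all genes were computed for the main comparison only. These counts and those that follow thus cannot tell a move of the members from one of all genes. Leaving out each mock gave 4 to 25 higher in HCT116 and 4 to 22 in PANC-1, and the lone mock is then assumed to vary like those of the other line. Scaling to the 75th percentile and no background correction gave 21 and 21. No paired analysis was possible because the labels give each miRNA 1 array and no replicate numbers that groups share. Signal over background limits what can be seen: a member near background can change without reaching 2-fold.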

Other observations

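Of 42 long noncoding RNAs outside the LINC names, 36 were detected. With miR-139-3p, 6 of 33 were at least 2-fold higher and 2 lower, beside 2.34% and 3.13% of all genes. NEAT1, the scaffold of paraspeckles, read 2.83, TUG1 2.08, KCNQ1OT1, the imprinted antisense RNA of KCNQ1, 1.73, and MALAT1, an abundant RNA of nuclear speckles, 1.44. With miR-30c-2-3p, 10 of 34 were at least 2-fold lower and 0 higher, beside 4.56% and 1.86% of all genes, with a median log2 ratio of -0.45. MEG3, an imprinted RNA, read -2.26 there, the snoRNA host gene SNHG8 -2.13 and NEAT1 -2.13. These shares were not tested against those of the members or of all genes.

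UCA1 read -1.22 and -1.48 under the 5p and 3p strands of miR-139, and -0.31 and -1.89 under those of miR-143, a reading below 0 on all 4 as for LINC01405. With miR-30a-3p, 2 of 35 were at least 2-fold higher, H19 at 1.44 and NEAT1 at 1.02, and 1 was lower, CRNDE at -1.02. Of all genes, 0.415% were higher and 1.26% lower on that array. The guide strands of miR-30 gave no call in this list.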
